A study of Mus musculus with 7 samples.

Results

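Transcripts of 40 genes that mark the oviduct epithelium were followed in the ovaries of adult mice, library by library. Of these genes, 38 belong to the motile cilia of ciliated cells, and 2, Pax8 and Ovgp1, mark the secretory cells. The members were listed by name as known markers, and the identifiers that GENCODE M21 gives to these names were read from the 55487 gene identifiers counted. All 40 had an identifier, and all 40 were among the 18779 genes tested.

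The oviduct is lined by ciliated cells, whose beating cilia move the egg and the fluid around it, and by secretory cells, which bathe the egg in glycoproteins. A motile cilium is built on a ring of microtubule doublets that carry dynein motors, with radial spokes and a central pair that set the beat, and a regulatory complex that links neighbouring doublets. MCIDAS and CCNO start the making of many basal bodies in 1 cell, while FOXJ1 and the RFX factors switch on the genes of the axoneme. PAX8 is a transcription factor of Müllerian duct derivatives, and OVGP1 is the oviductin glycoprotein that coats the egg in the oviduct. The tube lies against the ovary and its bursa.

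Ovaries were taken at diestrus on postnatal day 60 from C57BL/6J females. The 3 CNTR mice were daughters of dams that had received PBS, and the 4 PAMH F3 mice descended from F0 dams that had received anti-Müllerian hormone (AMH) at 0.12 mg/kg per day. Dams of both groups were injected on E16.5 to E18.5, that is, late in gestation, and the lineage of the PAMH F3 mice received no AMH afterwards. CNTR stands for generation 1 and PAMH F3 for generation 3, so group and generation cannot be told apart. Each library came from 1 mouse and held between 32158174 and 35485021 counts assigned to genes. The counts were scaled to CPM (reads per 1000000 reads of the library) with TMM factors, which correct for a few abundant genes taking a larger share of a library. In bulk tissue, fewer cells of a type and less RNA per cell cannot be told apart.

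As the ovary label has it, 14 marker genes of granulosa, theca, luteal cells and oocytes were all detected in every library. The lowest value was 14.1 CPM, for Oosp1 in PAMH F3 1. Their summed level averaged 8388 ± 1124 CPM for CNTR (SD, n = 3) and 7422 ± 1012 CPM for PAMH F3 (SD, n = 4). Cyp11a1 alone ran from 2939 to 4899 CPM, so the sum says little of the other markers. Every member was detected in each of the 7 libraries, and all except Mcidas had at least 202 counts in each. Detection alone does not show that oviduct tissue was present. Mcidas, which acts early, while a cell becomes multiciliated, had between 1 and 21 counts per library. Of the 40 members, 14 share exon bases with another gene (11 only with a gene on the opposite strand). The counting setting for strand is not given in the sources used here, so the counts of these 14 are uncertain. Among them are Ovgp1, Pax8, Hydin, Cfap52 and Dnah9.

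Many genes of motile cilia carry an X-box near their start, the site to which RFX factors bind. RefSeq windows on GRCm38.p6, from 250 bases before to 50 bases after each start, were at hand for 36 members (42 windows), and Foxj1, Rsph1, Rsph4a and Tppp3 had none. An X-box arm, GTTGCC on either strand, was in 52.4% of the members' windows and in 12.5% of all 32851 windows. The share was 45.3% for 68 other genes of motile cilia (51 with a window) and was reached by 11 of 22 windows of genes of the primary cilium and of intraflagellar transport. The forkhead core GTAAACA, searched on both strands, was in the windows of Ak7, Cfap43 and Sntn, and in 3.65% of all windows. The arms before the start of 10 members are shown with up to 15 bases on each side, because they let the flanks be compared. Each reads 5′ to 3′ on the strand on which the arm reads GTTGCC, and the arm is in capitals.
Mcidas: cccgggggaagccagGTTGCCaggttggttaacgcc
Ccno: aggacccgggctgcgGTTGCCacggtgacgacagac
Dynlrb2: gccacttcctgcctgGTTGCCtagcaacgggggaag
Dnai2: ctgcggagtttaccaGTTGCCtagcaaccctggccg
Lrrc23: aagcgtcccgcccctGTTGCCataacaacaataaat
Hydin: accatctGTTGCCacagcaaccgcagag
Cfap44: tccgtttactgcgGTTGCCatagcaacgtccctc
Tekt2: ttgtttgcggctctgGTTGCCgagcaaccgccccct
Pifo: tactacGTTGCCaagggaacggaaccg
Sntn: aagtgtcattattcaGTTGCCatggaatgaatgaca

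In Dynlrb2 (chr8:116504949-116504984, plus strand) the arm ended 45 bases before the start and was followed by CAAC, which reads GTTG on the other strand. The same 4 letters stood within the 10 bases after the arm in 8 of the 20 arms found before the start of 16 members. The share among the arms of all windows is not given here, so this count has nothing to be set against. Hydin (chr8:110266949-110266976), Cfap44 (chr16:44394765-44394798), Lrrc23 (chr6:124779746-124779781) and Dnai2 (chr11:114727378-114727413) were among the members with these letters. Mcidas (chr13:112993658-112993693) and Ccno (chr13:112987568-112987603) are neighbours, with 3067 bases between the genes. Ovgp1 (chr3:105973711-105987423) and Pifo are neighbours as well, with 9533 bases between them on mm10. The matches are letters in a window and say nothing of binding in these ovaries.

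Ovgp1 stood far above the other members. Its counts took between 0.237% and 0.633% of all gene counts, and it ranked between 1st and 12th among all genes of a library by count. Per kilobase of exon, its mean level was 1147 ± 362 CPM per kb (SD, n = 7), against 79.5 ± 12.8 for the next member, Dynlrb2. Ovgp1 was at 5074, 3803 and 2832 CPM in CNTR 1 to 3. It was at 3935, 4388, 6172 and 2394 CPM in PAMH F3 1 to 4. The highest and the lowest library were both PAMH F3, and the groups overlapped. The mean was 3903 ± 1124 CPM for CNTR (SD, n = 3) and 4222 ± 1555 CPM for PAMH F3 (SD, n = 4), a log2 difference of 0.02 ± 0.17 (SE) in edgeR's quasi-likelihood fit (adjusted p = 0.990).

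Per kilobase of exon, the median of the 40 members was 8.42 CPM per kb, against 4.67 over all genes tested, and 29 members lay above the latter. After Ovgp1 and Dynlrb2 came Tppp3 at 66.6 ± 18.0 (SD, n = 7), Foxj1 at 34.9 ± 9.6, Cfap126 at 32.4 ± 4.04 and Rsph1 at 32.2 ± 4.84 CPM per kb. The last 3 lay closer together than their SD, as did Sntn at 26.2 ± 3.95 and Pifo at 24 ± 3.72. The lowest beside Mcidas (0.130) were Spag17 at 2.01, Rfx2 at 2.36, Dnah11 at 2.46, Spef2 at 2.73 and Hydin at 2.98 CPM per kb. The coefficient of variation over the 7 libraries lay between 10.4% and 31.5% without Mcidas, with a median of 15.3%, and the median over all genes tested was 14.3%. Ovgp1 varied most, followed by Foxj1 (27.4%), Tppp3 (27.0%), Pax8 (26.8%) and Ccno (26.6%), while Dnai2 (10.4%) and Ccdc114 (10.4%) varied least.

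Pax8 was at 42.8, 43.8 and 23.7 CPM in CNTR 1 to 3 and at 36, 41.0, 51.5 and 25.4 CPM in PAMH F3 1 to 4. As for Ovgp1, PAMH F3 3 was highest, and CNTR 3 and PAMH F3 4 were the 2 lowest libraries. The groups overlapped, and the log2 difference was 0.08 ± 0.08 (SE). Neither secretory gene differed by the exact two-sided permutation test over the 35 divisions of the libraries, whose smallest possible p is 0.0286 (p = 0.83 for Ovgp1 and 0.914 for Pax8).

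Among the regulators, Foxj1, which is needed to make motile cilia, had the highest level per kilobase, 34.9 ± 9.6 CPM per kb (SD, n = 7). It was at 95.8, 142 and 73.6 CPM in CNTR 1 to 3. It was at 64.0, 85.1, 97.0 and 82.9 CPM in PAMH F3 1 to 4. CNTR 2 stood above all other libraries and PAMH F3 1 below them, and the groups overlapped. The log2 difference was -0.19 ± 0.13 (SE) and did not pass (adjusted p = 0.781). It was -0.33, -0.39 and -0.32 without CNTR 1, CNTR 3 and PAMH F3 4, each with an unadjusted p under 0.05 in edgeR, and -0.08 without CNTR 2 and -0.12 without PAMH F3 1. Ccno had the same order at its ends, with CNTR 2 highest at 17.3 CPM and PAMH F3 1 lowest at 7.65 CPM. Rfx2 was also highest in CNTR 2, at 23.6 CPM, while Rfx3 was lowest there. The 5 regulators had log2 differences from -0.21 to 0.71, the largest being that of Mcidas with an SE of 0.52, and none had an unadjusted p under 0.05.

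The dynein members move the doublets or bring the motors into place. The highest per kilobase was Dynlrb2, a light chain of the roadblock kind, at 45.4, 45.8 and 33.5 CPM in CNTR 1 to 3 and at 44.1, 50.7, 53.5 and 36.4 CPM in PAMH F3 1 to 4. Its groups overlapped, with CNTR 3 and PAMH F3 4 the lowest, and the log2 difference of 0.15 ± 0.07 (SE) did not pass (adjusted p = 0.676). The heavy chains had another order. Dnah5, of the outer arm, ran from 112 CPM in CNTR 3 to 195 CPM in PAMH F3 4, and Dnah9 from 48.6 to 80.2 CPM in the same libraries. Dnah11, a heavy chain of the outer arm, was lowest in CNTR 3 as well, and so were Dnai2, an intermediate chain, Ccdc114, of the docking complex, and Zmynd10, an assembly factor. Of the 7 dynein members, 5 lay above and 2 below 0 in the group comparison, and none had an unadjusted p under 0.05.

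Radial spokes pass signals from the central pair to the dyneins. Rsph1, a protein of the spoke head, was at 49.1, 45.4 and 33.1 CPM in CNTR 1 to 3 and at 41.0, 50.6, 50.5 and 39.2 CPM in PAMH F3 1 to 4. CNTR 3 was lowest and the groups overlapped, with a log2 difference of 0.08 ± 0.07 (SE) that did not pass (adjusted p = 0.830). Lrrc23, also of the spoke head, was at 27, 24 and 17 CPM in CNTR 1 to 3 and at 25, 26, 30.4 and 22 CPM in PAMH F3 1 to 4. Its groups overlapped too. The log2 difference of 0.20 ± 0.07 (SE) had an unadjusted p of 0.0298 in edgeR and an adjusted p of 0.623, and the unadjusted p was 0.242 without surrogate variables. The difference ran from 0.11 without CNTR 3 to 0.39 without CNTR 1, and its unadjusted p was over 0.05 without CNTR 3 (0.292) and without PAMH F3 2, 3 or 4 (0.0790, 0.154 and 0.127). Rsph4a and Rsph9 lay below 0, at -0.11 and -0.12, and did not pass.

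Hydin, a very large protein of the central apparatus, was at 68.2, 52.7 and 38.4 CPM in CNTR 1 to 3 and at 54.9, 52.4, 43.1 and 66.2 CPM in PAMH F3 1 to 4. CNTR 1 and PAMH F3 4 were highest, and PAMH F3 3, the highest library for Ovgp1 and Pax8, was next to lowest. The log2 difference of -0.07 ± 0.18 (SE) did not pass (adjusted p = 0.962). Spag17 and Spef2, of the same apparatus, were both highest in CNTR 1 and lowest in CNTR 3.

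Ccdc39 and Ccdc40 form the ruler that spaces the dyneins along the doublet. Ccdc40 was at 59.5, 55.1 and 38.8 CPM in CNTR 1 to 3 and at 46.9, 55.8, 50.8 and 53.0 CPM in PAMH F3 1 to 4. Both ends of this range were CNTR libraries, and the log2 difference was -0.003 ± 0.11 (SE, adjusted p = 0.998). Drc1, of the nexin-dynein regulatory complex, and Cfap43, of the tether of inner dyneins, had the same highest and lowest libraries. Cfap44, the partner of Cfap43 in the tether, was highest in PAMH F3 4, at 70.9 CPM, and Ccdc113 in PAMH F3 2, at 10.7 CPM. The 6 members of this role had log2 differences from -0.003 to 0.20, and none had an unadjusted p under 0.05.

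Among the 13 tektins and other proteins of ciliated cells, Tppp3, a tubulin-binding protein, was highest per kilobase. It was at 115, 178 and 118 CPM in CNTR 1 to 3 and at 84.1, 123, 153 and 89.8 CPM in PAMH F3 1 to 4. CNTR 2 stood highest, as for Foxj1, Ccno and Rfx2. The groups overlapped, and the log2 difference of -0.14 ± 0.10 (SE) did not pass (adjusted p = 0.774). Tekt1, Tekt2 and Tekt4, filament proteins of the doublet, had log2 differences of 0.07, 0.06 and -0.02. Pifo (0.11), Sntn (0.06), Cdhr3 (0.12), Cdhr4 (0.10), Ak7 (-0.08), Armc3 (0.09) and Mns1 (-0.01) did not pass either. Of the 13 members of this role, 9 lay above and 4 below 0, with a median of 0.07.

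Cfap52, a protein inside the doublet microtubules (chr11:67924806-67965651 on mm10, minus strand), was the only member whose groups did not overlap. It was at 24.8, 23.7 and 19.6 CPM in CNTR 1 to 3 and at 27.9, 29.9, 27.6 and 26.0 CPM in PAMH F3 1 to 4. All PAMH F3 libraries lay above all CNTR libraries, with an exact two-sided permutation p of 0.0286, the smallest the design allows. Over all genes tested, 1.85% had groups apart in this direction, and 1 of 40 members did. The log2 difference of 0.28 ± 0.08 (SE) had an unadjusted p of 0.00981 and an adjusted p of 0.542 in edgeR's test. Without CNTR 3 the unadjusted p was 0.0520. Its exons overlap those of a gene on the opposite strand.

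Cfap126, also called Flattop, which helps to position basal bodies, was at 56.4, 56.4 and 46.5 CPM in CNTR 1 to 3 and at 56.6, 66.8, 66.3 and 53.1 CPM in PAMH F3 1 to 4. PAMH F3 4 lay below CNTR 1 and CNTR 2, so the groups overlapped. The log2 difference of 0.20 ± 0.07 (SE) had an unadjusted p of 0.0181 and an adjusted p of 0.580, and the unadjusted p was 0.124 without surrogate variables. It lay between 0.0527 and 0.0782 without CNTR 3, PAMH F3 2 or PAMH F3 3.

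**Figure D1:**
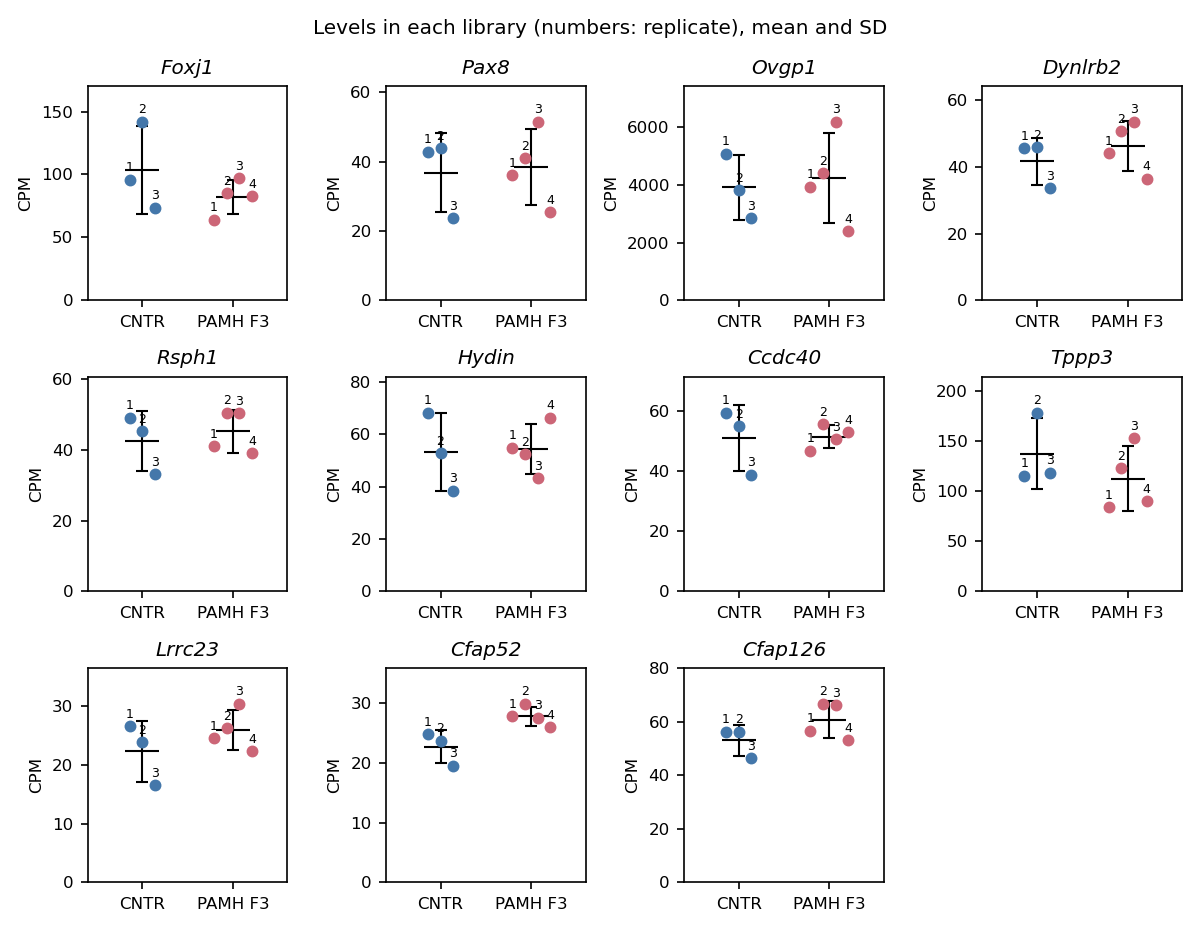
Levels (CPM, linear axes from 0) of the 11 members given library by library, with 1 point per mouse, the replicate number above it, and the group mean with its SD. For Cfap52 the 4 PAMH F3 points (26.0 to 29.9 CPM) all lie above the 3 CNTR points (19.6 to 24.8 CPM), and for the other 10 genes the groups overlap.

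The question put to the members as a group was whether PAMH F3 ovaries carried more or less of these transcripts than CNTR ovaries. None of the 40 passed an adjusted p of 0.05 in edgeR, where 0.0% of all genes tested passed, and DESeq2 with the same surrogate variables passed 0 members and 0.511% of all genes. The adjusted p of the members lay between 0.542 and 0.998 in edgeR. An unadjusted p under 0.05 was found for 3 members, all higher in PAMH F3 (Cfap52, Cfap126 and Lrrc23), that is, 3 of 40 where 3.89% of all genes had such a p in this direction and 7.63% in either. Without surrogate variables it was 1 of 40, Cfap52, against 1.17% of all genes that were higher with such a p. DESeq2 gave 3 of 40, all higher, against 2.74% of all genes.

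The median log2 difference of the members was 0.08, against 0.01 over all genes tested. It was above 0 for 28 members and below 0 for 12, while 52.2% of all genes tested were above 0. The median moved to -0.04 without CNTR 3, with 16 of 40 members above 0, and to 0.23 without CNTR 1. Without CNTR 1, 25 of 40 members had an unadjusted p under 0.05 (23 higher and 2 lower in PAMH F3), where 17.1% of all genes had one, and the smallest adjusted p of a member was 0.0729. Without CNTR 3 there were 4 such members, 0 higher and 4 lower, where 8.68% of all genes had such a p. Without PAMH F3 4 there were 6, of which 3 were higher and 3 lower, where 6.47% of all genes had one. The other omissions gave between 1 and 3, where between 4.28% and 10.6% of all genes had one. The median was 0.024 without PAMH F3 2, with 25 of 40 members above 0, and 0.0018 without PAMH F3 4, with 20 of 40. CNTR 1 is the highest library for 12 members and CNTR 3 the lowest for 32. The group median thus depended on single mice of both groups.

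**Figure D2:**
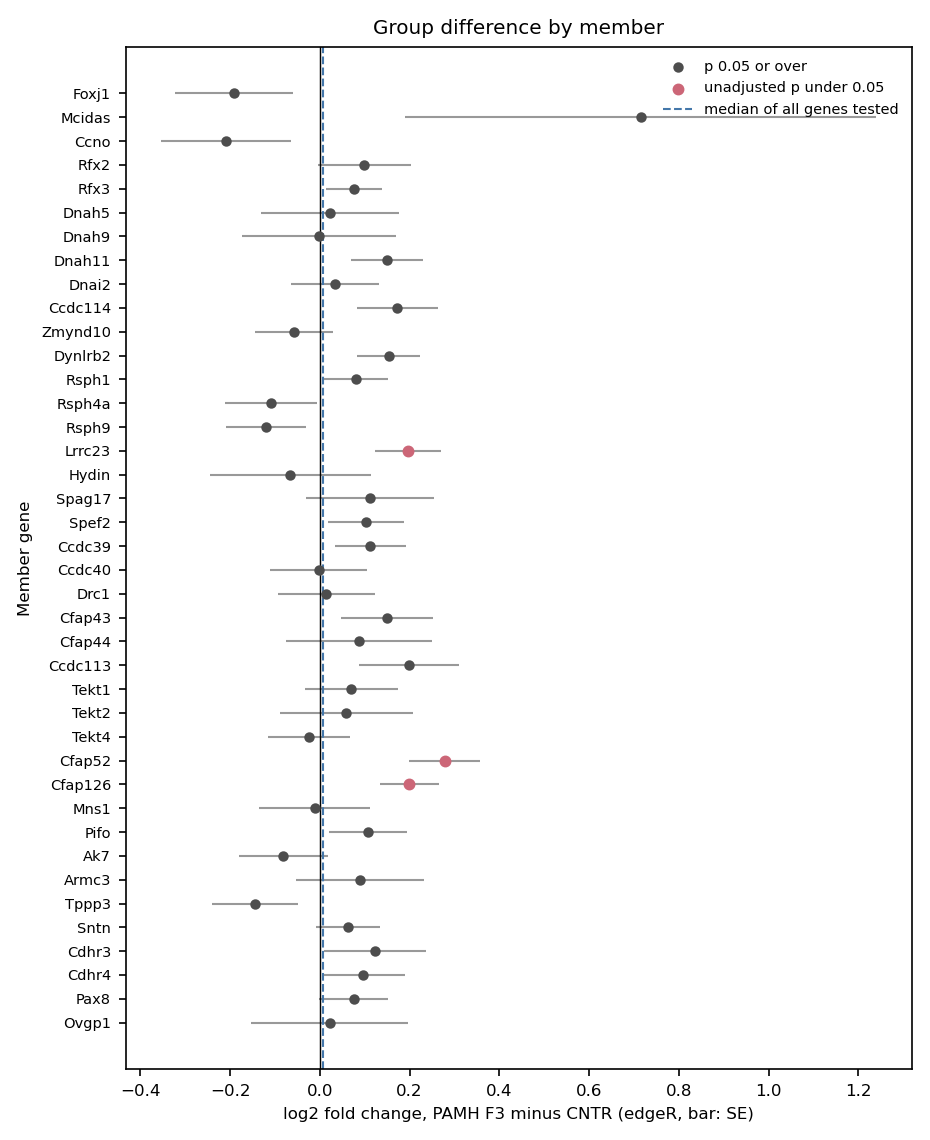
The log2 fold change of each of the 40 members (points, PAMH F3 minus CNTR, edgeR with 2 surrogate variables) with its SE (bars), beside the median over all genes tested (dashed line at 0.01). The 3 red points, Lrrc23, Cfap52 and Cfap126, have an unadjusted p under 0.05, and none has an adjusted p under 0.05.

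By sum, the 40 members reached 5433 ± 1376 CPM for CNTR (SD, n = 3) and 5797 ± 1572 CPM for PAMH F3 (SD, n = 4), a log2 ratio of the means of 0.09. Ovgp1 made up most of this sum. The 38 ciliated members alone reached 1494 ± 260 CPM for CNTR (SD, n = 3) and 1536 ± 82.2 CPM for PAMH F3 (SD, n = 4). By library, the ciliated sum was 1688, 1594 and 1198 CPM in CNTR 1 to 3 and 1416, 1600, 1556 and 1572 CPM in PAMH F3 1 to 4. CNTR 3 was the lowest and CNTR 1 the highest, so the range of CNTR held that of PAMH F3.

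The members varied together from mouse to mouse. CNTR 3 was the lowest library for 32 of 40 members, where it was the lowest for 14.6% of all genes tested. The median Pearson r between a member and the mean of the other 39 (each standardized, on log2 (CPM + 0.5)) was 0.74 over the 7 libraries, and 21 members had an r over 0.7. Of the 18739 genes that are no members, 6.93% had an r over 0.7 with the mean of all members. Ccdc40 (0.95), Dnai2 (0.93), Cdhr4 (0.93) and Rsph1 (0.93) followed the others most closely, and Rfx3 (0.08) and Tppp3 (0.20) least. With the group means removed the median r was 0.76. Without CNTR 3 it was 0.45, with 6 members over 0.7, so much of the shared variation rests on this library.

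**Figure D3:**
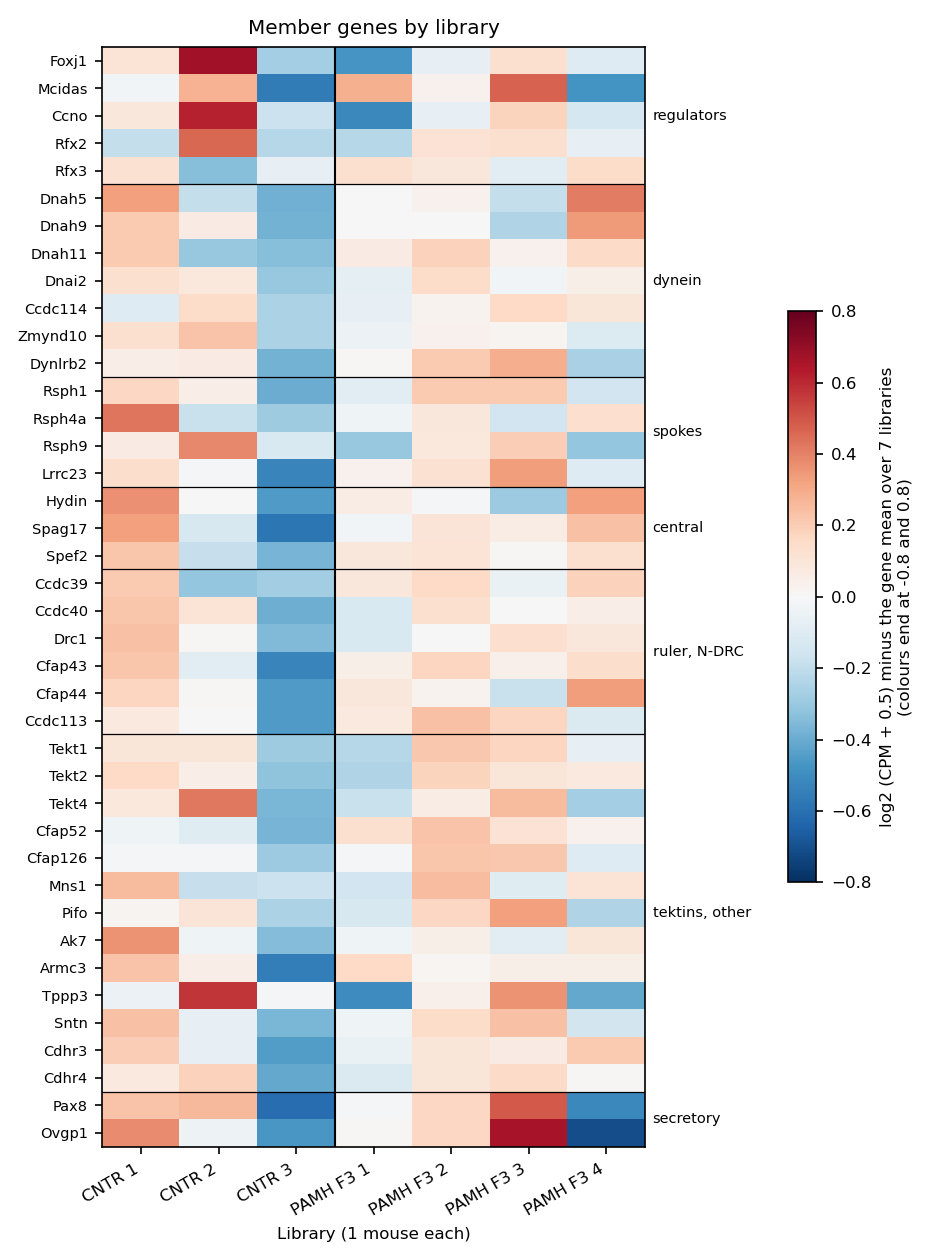
Heat map of the 40 members (rows, by role) in the 7 libraries (columns), as log2 (CPM + 0.5) minus the mean of the gene over all libraries, with red for above and blue for below it. The CNTR 3 column is blue for nearly all rows and is the lowest for 32 of 40, Foxj1, Ccno and Tppp3 are reddest in CNTR 2, and Pax8 and Ovgp1 are reddest in PAMH F3 3 and blue in PAMH F3 4.

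Pax8 had an r of 0.76 with the mean of the other members and Ovgp1 one of 0.60, against 0.44 for Foxj1. Pairs of these 3 genes, the regulator of cilia and both secretory genes, were then tested. Pax8 and Ovgp1 had a Pearson r of 0.92 (exact permutation p = 0.00476, adjusted over 3 pairs 0.0143) and a Spearman rho of 0.75 (exact permutation p = 0.0663, adjusted 0.0994) over the 7 libraries. Without the 2 libraries farthest from the median of Pax8, r was 0.77. Foxj1 and Ovgp1 had an r of 0.27 (exact permutation p = 0.570, adjusted 0.570) and a rho of 0.43 (p = 0.354 by exact permutation, adjusted 0.354). Without the 2 libraries farthest from the median of Foxj1 their r was 0.83. Foxj1 and Pax8 had an r of 0.53 (exact permutation p = 0.234, adjusted 0.351) and a rho of 0.86 (exact permutation p = 0.0238, adjusted 0.0714), and r was 0.89 without the 2 libraries. With group means removed the r of these pairs was 0.92, 0.35 and 0.64 in the order given. Within a group of 3 or 4 libraries a correlation was not computed.

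Relative to the mean of the 7 libraries, the 38 ciliated members stood at 1.07 in PAMH F3 3 and at 0.991 in PAMH F3 4, while Pax8 and Ovgp1 stood at 1.44 and 0.629. The ratio of Ovgp1 to Dnah5 was 48.1 in PAMH F3 3 and 12.3 in PAMH F3 4, and lay between 25.2 and 29.5 in the other 5 libraries. The ratio of Ovgp1 to Foxj1 had other ends, with 26.8 in CNTR 2 and 63.6 in PAMH F3 3.

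Part of the order among ciliated members went with the length of their exons. The log2 difference between PAMH F3 4 and PAMH F3 3, a pair chosen after the values were seen, was related to log2 exon length across 37 ciliated members with a Pearson r of 0.85 and a Spearman rho of 0.87. This is a relation across genes of 2 libraries, and genes are not independent replicates. Over the 15675 genes with a mean above 1 CPM it was 0.28 and 0.35. All 8 ciliated members with over 8 kb of exon, a boundary also set after seeing the values, were higher in PAMH F3 4, by 0.12 to 0.61, namely Cfap44, Spag17, Spef2, Rfx3, Dnah11, Dnah5, Dnah9 and Hydin. Of the 29 shorter ones, 8 were higher and the median was -0.14. Over all genes, 2004 of 2623 above 8 kb and 6284 of 13052 up to 8 kb were higher in PAMH F3 4. The medians were 0.17 above and -0.01 up to 8 kb, so longer genes as a whole stood higher in PAMH F3 4 as well. Pax8 and Ovgp1 lay outside the relation, at -1.01 and -1.37. Dynlrb2, the shortest member, was at -0.55.

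**Figure D4:**
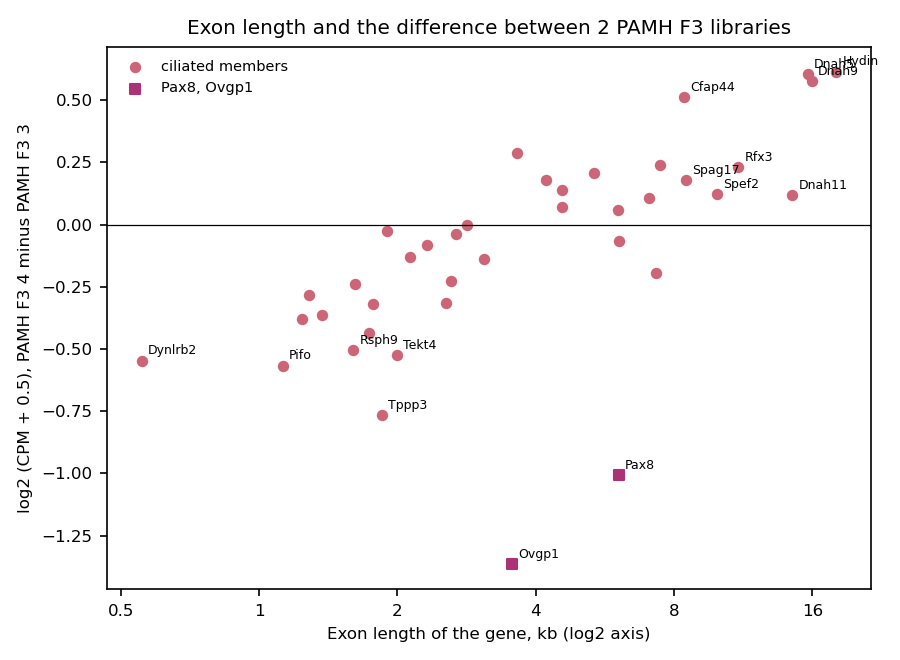
The log2 difference in level between PAMH F3 4 and PAMH F3 3 (y axis) against exon length in kb (x axis, log2 scale) for 37 ciliated members (circles) and for Pax8 and Ovgp1 (squares), without Mcidas. Points climb from -0.55 for Dynlrb2 to 0.61 for Hydin, and the secretory genes lie below the rest.

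CNTR 2 stood apart by base composition. Its deviation from the mean of the 7 libraries had a slope of 0.31 log2 units for each 10 percentage points of GC over all 15675 genes (r = 0.62 across genes) and of 0.38 over 39 members (r = 0.81). The members with the highest GC were Foxj1 (61.4%), Tppp3 (59.2%), Rfx2 (58.5%) and Ccno (57.9%), and all 4 were highest in CNTR 2, which was the highest library for 8 members. The part of base composition and of length in the levels of these members was not tested.

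Other gene lists show what moved beside the members. The 68 other genes of motile cilia followed them, with a median r of 0.77 to the mean of the members and 43 of 68 over 0.7. In the group comparison 4 of them, Dnah2, Ccdc65, Enkur and Mlf1, had an unadjusted p under 0.05, all higher in PAMH F3, where 3.89% of all genes were. None passed after adjustment, and without surrogate variables 0 of 68 had such a p in that direction. The 12 genes that drive the making of many basal bodies had a median r of 0.37, from -0.13 to 0.96. Of these 12, 4 were over 0.7, where 6.93% of all genes outside the members were. An unadjusted p under 0.05 was found for 0 of 12. The 25 genes of the primary cilium and of intraflagellar transport, which many cell types use, had a median r of 0.27, and 4 of 25 were over 0.7. They stood between 0.949 and 1.03 relative to the mean in every library. The members of motile cilia ran from 0.764 to 1.10.

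The 23 genes of Müllerian duct and oviduct epithelium, such as the keratins Krt7 and Krt8 and the adhesion protein Epcam, had an order close to that of Pax8 and Ovgp1. Their relative level was 1.12, 1.21 and 0.757 in CNTR 1 to 3 and 0.855, 1.04, 1.33 and 0.679 in PAMH F3 1 to 4. Wnt7a, which patterns the Müllerian duct, was at 7.11, 3.06 and 0.433 CPM in CNTR 1 to 3 and between 2.24 and 3.29 CPM in PAMH F3. Wfdc2, a secreted protein of this epithelium, was at 52.3, 46.0 and 10.6 CPM in CNTR 1 to 3 and between 27.8 and 63.4 CPM in PAMH F3. Both were lowest in CNTR 3, the library lowest in most members, whereas Lcn2 (84.4 CPM) and Slpi (12.9 CPM) were highest there. Over the list the median r to the mean of the members was 0.55, from -0.46 to 0.97, and 8 of 23 were over 0.7. An unadjusted p under 0.05 was found for 1 of 23, Ehf, a transcription factor of epithelia, with a log2 difference of 0.18 (adjusted p = 0.567 in edgeR), where 3.89% of all genes were higher with such a p. Without surrogate variables its unadjusted p was 0.427 in edgeR. The keratins and Epcam are also made by the surface epithelium of the ovary. The 8 genes of that surface and of mesothelium did not follow the members as a set (median r of -0.04, from -0.38 to 0.51, and 0 of 8 over 0.7). The part of that surface in the levels of the keratins and Epcam was not tested.

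The 14 ovary genes had a median r of -0.55 with the mean of the members (from -0.91 to 0.70) and 0 of 14 over 0.7. Their relative level was 0.923, 1.03 and 1.24 in CNTR 1 to 3 and 0.864, 0.913, 0.972 and 1.06 in PAMH F3 1 to 4. It was highest in CNTR 3, where the members were lowest. An unadjusted p under 0.05 was found for 2 of 14, Foxl2 and Amh of granulosa cells, both lower in PAMH F3, where 7.63% of all genes had one in either direction. None passed after adjustment, and without surrogate variables 1 of 14, Foxl2, had such a p. The part of the make-up of the ovary in the levels of the members was not tested.

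Markers of tissues around the ovary differed between the mice as well. The summed level of 8 adipocyte genes, all of which were detected in every library with Adipoq between 20.2 and 185 CPM, was 1653, 734 and 523 CPM in CNTR 1 to 3 and 511, 987, 1173 and 300 CPM in PAMH F3 1 to 4. It was highest in CNTR 1, the highest library for 12 members, and lowest in PAMH F3 4, the lowest for Ovgp1. In PAMH F3 4 the adipocyte genes stood at 0.322 relative to the mean of the 7 libraries, and the ciliated members at 0.991. The adipocyte genes had a median r of 0.49 with the mean of the members, and 1 of 8 was over 0.7. The summed level of 10 smooth muscle genes ran from 1665 CPM in PAMH F3 4 to 2903 CPM in CNTR 2, and 0 of 10 followed the members over 0.7. The part of these tissues, or of oviduct left on the ovary, in the levels of the members was not tested.

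**Figure D5:**
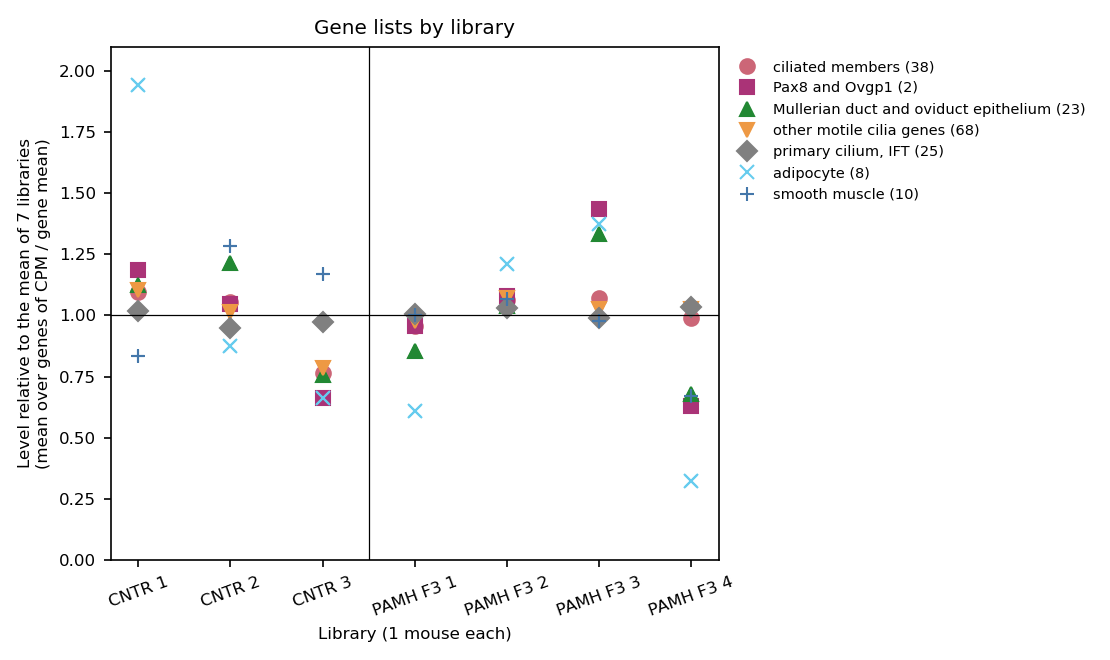
Level of 7 gene lists in each library relative to the mean of the 7 libraries (y axis from 0, with the number of genes of each list in the legend). CNTR 3 is low for ciliated members (0.764) and for Pax8 and Ovgp1 (0.661), PAMH F3 4 is low for Pax8 and Ovgp1 (0.629) but not for ciliated members (0.991), and the primary cilium list stays between 0.949 and 1.03.

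Among genes outside the member list, those closest to the mean of the members were St8sia4 (r = 0.99), AC132452.5 (0.99), Fxyd4 (0.99), Hrasls (0.99), Ltf (0.98), Ifitm6 (0.98), Dnali1 (0.98), Oscp1 (0.98), Slc2a12 (0.98) and Nufip1 (0.98), over 7 libraries that all these values share. Dnali1 is a light intermediate chain of axonemal dynein. Ltf, lactotransferrin, a secreted iron-binding protein, ran from 151 to 646 CPM. Fxyd4, a regulator of the sodium pump, ran from 11 to 97.4 CPM. None of the 10 had an adjusted p under 0.8 in the group comparison.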

How the data were processed

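The authors made stranded libraries of poly(A) RNA, 1 per mouse, mapped short single reads to mm10 with STAR 2.5.3a and counted uniquely aligned reads per Ensembl gene with HTSeq 0.6.1p1 in union mode. The deposited values are these raw counts per gene, with neither normalization nor pooling, and the 5 summary lines per library were left out of sums and tests. Of all alignments, between 37.7% and 40.7% were not unique, and between 5.82% and 7.37% were unique but fell outside genes. Identifiers were named through GENCODE M21 (55394 of 55487 matched), and Dnai2 was found under the synonym Dnaic2. Levels are given with the SD between mice and log2 differences with their SE from the fit, and n counts libraries that the labels number as separate mice.

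All genes kept by filterByExpr of edgeR 4.0.16 (minimum count 10) were fitted together in R 4.3.3 with TMM factors, the group and 2 surrogate variables from svaseq (sva 3.50.0, number from num.sv with 20 permutations and seed 1, at most 3). The quasi-likelihood F test was adjusted by Benjamini-Hochberg over the 18779 genes with a threshold of 0.05, and 3 residual degrees of freedom remained. Surrogate variables follow the model that the study describes, whose IHW adjustment was not used here. DESeq2 1.42.0, other normalizations, filters, numbers of surrogate variables, a replicate block and the omission of each library were the alternatives. The tests were checked on simulated data. Single genes and correlations were tested by exact permutation in Python 3.11.15, over 35 divisions or 5040 orders, and correlations used log2 (CPM + 0.5).

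The members, roles and other lists were chosen with earlier results of these data known. Given library by library were Foxj1, Pax8 and Ovgp1, the highest member per kilobase in each role, and members with an unadjusted p under 0.05 or with groups apart. Outside the members, the 10 genes with the highest r to their mean were named. Other genes are examples chosen after their values were seen. The route of injection is given as intraperitoneal in the study's methods and as subcutaneous in the labels.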

Additional observations from a re-analysis of the deposited data

How the results depend on the processing

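No member passed an adjusted p of 0.05 under any alternative, and the median log2 difference of the members lay between -0.04 (without CNTR 3) and 0.23 (without CNTR 1). The number of members with an unadjusted p under 0.05 was 3, where 7.63% of all genes had one. It was 1, higher in PAMH F3, with 0 surrogate variables, where 1.17% of all genes were higher with such a p. The number was also 1 with DESeq2 without surrogate variables and with a replicate block, for which the share of all genes is not given here. Over the omissions the number ran from 1 (without PAMH F3 2, where 4.28% of all genes had such a p) to 25 (without CNTR 1, 17.1%). It was 6 without PAMH F3 4 (6.47%). Among single members, Hydin turned from a negative log2 difference to 0.029 with 0 surrogate variables, 0.035 with 1 and 0.029 with DESeq2 without them, and Ccdc40 to 0.014, 0.044 and 0.014, and to 0.025 with the replicate block. Leaving out 1 library at a time gave -0.0090 to 0.25 for Pax8, -0.15 to 0.35 for Ovgp1, -0.32 to 0.21 for Hydin, -0.16 to 0.15 for Ccdc40, 0.12 to 0.25 for Dynlrb2, 0.01 to 0.23 for Rsph1 and -0.37 to -0.06 for Tppp3. The r of Pax8 and Ovgp1 ran from 0.89 (without PAMH F3 4) to 0.97 (without CNTR 2). Its adjusted p was 0.0542, 0.100 and 0.0667 without PAMH F3 2, 3 and 4. The median r of a member with the others ran from 0.45 (without CNTR 3) to 0.80 (without PAMH F3 4). The causes were not tested.

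Libraries with the same replicate number deviated together with an r of 0.112, 0.117 and -0.302. No r between libraries with different numbers was set beside these, so whether the numbers pair the mice was not decided. With the replicate block the median log2 difference of the members was 0.11. The summed level had a log2 ratio of group means between -0.08 and 0.29 over the omissions. Single mice within groups had an SD of 0.39 in log2 units, which is not the error of that ratio. With 3 and 4 mice and 3 residual degrees of freedom, a difference such as that of Cfap52 could not be told from the spread after adjustment over all genes. Counts of Mcidas were too low for its level to be relied on.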
